A study of Mus musculus with 5 samples.

Results

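Clustered H3K27me3 peaks near protein-coding genes outside the Hox clusters were examined in molar mesenchyme of young mice. A peak of H3K27me3 replicate 1 called against input was a member when 5 or more other peaks of that list had midpoints within 10 kb of its own, when its midpoint lay within 10 kb of the 5′ end of a protein-coding gene, and when it lay outside the 4 Hox clusters. Of the 22757 peaks in that list, 1491 were members. They were selected on measured values, the number and position of replicate 1 peaks, so every value of that library is given as a description of the choice. Replicate 2 was not used for the choice.

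The data were ChIP-seq libraries of molar mesenchyme from wildtype C57BL/6 mice at postnatal day 3, taken after removal of the epithelium. The 5 libraries, all of the same genotype, strain and age, were 2 of H3K27me3, 2 of input chromatin and 1 made with a nonspecific IgG. Nothing in the labels tells if the replicates were different animals or pooled tissue, and the spread between them may be technical. No group carried a transgene or a treatment, and the assay gives no expression values against which the tissue could be checked. After removal of duplicate tags, H3K27me3 replicate 1 held 30369351 tags, its input 23688420 and the IgG library 24440452. Replicate 2 held 49947919 and its input 51681224. Tags were 49 bp long in replicate 1 and 74 bp in replicate 2, so depth and tag length cannot be told apart from the replicate.

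H3K27me3, the trimethylated lysine 27 of histone H3, is the product of Ezh2, the catalytic subunit of Polycomb repressive complex 2. In vertebrates the mark is known to lie in broad domains over CpG-rich promoters of developmental regulators that are silent in a given tissue, most of them transcription factors of other lineages. The selection looks for rows of called peaks near the starts of genes.

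To show what a member is, 1 member is given for each of 5 loci that were among the 6 with most members and had a member overlapped by a peak of both other lists. The plus strand of GRCm38 is printed 5′ to 3′ with CpG dinucleotides, the sites of DNA methylation and the feature of Polycomb-bound promoters, in capitals.

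Zic2 (chr14:122485828-122485930): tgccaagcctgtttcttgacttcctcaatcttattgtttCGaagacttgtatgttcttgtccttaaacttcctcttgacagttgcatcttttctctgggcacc
Six3 (chr17:85608851-85609052): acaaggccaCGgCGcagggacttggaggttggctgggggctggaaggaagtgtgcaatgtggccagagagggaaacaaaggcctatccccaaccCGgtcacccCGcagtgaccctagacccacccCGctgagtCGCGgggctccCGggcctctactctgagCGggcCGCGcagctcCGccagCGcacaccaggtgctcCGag
Emx2 (chr19:59454061-59454310): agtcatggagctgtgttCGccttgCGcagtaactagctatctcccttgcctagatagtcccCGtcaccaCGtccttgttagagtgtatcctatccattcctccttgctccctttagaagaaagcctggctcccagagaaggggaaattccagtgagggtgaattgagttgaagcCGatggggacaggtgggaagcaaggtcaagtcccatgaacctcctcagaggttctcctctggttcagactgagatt
Pax7 (chr4:139828855-139829098): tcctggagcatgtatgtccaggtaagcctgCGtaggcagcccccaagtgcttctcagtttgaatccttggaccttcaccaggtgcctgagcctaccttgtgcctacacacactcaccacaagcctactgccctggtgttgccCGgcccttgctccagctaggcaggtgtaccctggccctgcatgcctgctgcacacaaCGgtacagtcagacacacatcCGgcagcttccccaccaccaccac
Gbx2 (chr1:89937427-89937610): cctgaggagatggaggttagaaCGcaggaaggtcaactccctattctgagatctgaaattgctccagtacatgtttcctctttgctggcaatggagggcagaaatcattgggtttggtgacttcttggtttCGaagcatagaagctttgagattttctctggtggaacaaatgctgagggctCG

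The Six3 member held 14 CpG in 202 bases (6.93 per 100 bases). It lay 4656 bp upstream of Six3, in an exon of the antisense RNA Six3os1. The Emx2 member held 5 CpG in 250 bases and lay 4186 bp upstream of its gene. The Pax7 member held 4 in 244 bases and lay in an intron, 4552 bp downstream of the 5′ end. The Gbx2 member lay 6340 bp upstream of its gene and held 3 CpG in 184 bases. The Zic2 member held 1 in 103 bases and lay nearest to the 5′ end of the predicted gene Gm10837, 4707 bp upstream of it. The CpG content of these peaks thus ran from 0.971 to 6.93 per 100 bases, and none of the 5 lay at a transcription start site. In replicate 1 their fold enrichment over input was 2.70 for Zic2, 2.76 for Six3, 2.75 for Emx2, 2.60 for Pax7 and 2.54 for Gbx2. The overlapping replicate 2 peaks had 2.79, 2.92, 2.91, 2.68 and 2.39, respectively. Next to them, the following members come from the loci of Cyp26c1 and Alx1, where replicate 2 had no peak.

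Cyp26c1 (chr19:37686953-37687006): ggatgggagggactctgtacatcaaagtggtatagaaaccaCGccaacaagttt
Alx1 (chr10:103035047-103035188): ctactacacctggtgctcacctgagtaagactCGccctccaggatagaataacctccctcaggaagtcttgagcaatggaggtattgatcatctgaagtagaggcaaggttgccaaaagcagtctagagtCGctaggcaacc

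The Cyp26c1 member lay in an intron 1398 bp downstream of the 5′ end and had a fold enrichment of 2.86 and a −log10 p of 2.54. The Alx1 member lay 4902 bp upstream of its gene, with 3.00 and 2.87. Both were picked for the highest replicate 1 −log10 p in their locus, while the 5 members above were picked for the highest replicate 2 −log10 p. Their fold enrichments are therefore not compared with those of the 5. The CpG content of the Cyp26c1 and Alx1 members was 1.85 and 1.41 per 100 bases.

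Single members were weak. Their median fold enrichment was 2.74 (range 2.47 to 3.98), with a median pileup, the mean number of overlapping tags, of 3.39 and a median length of 160 bp (46 to 1027 bp). Of the members, 23.1% had the lowest pileup in the list, 3.12, compared with 46.4% of the other peaks outside the Hox clusters. Members had a median of 8 other peaks within 10 kb and at most 20. Just inside the limit, the 260 peaks with 5 neighbours had a median fold enrichment of 2.73 and a median length of 157 bp. Just outside it, the 363 peaks with 4 neighbours that were otherwise eligible had 2.68 and 140 bp. The other limit was the distance to the 5′ end. Of the 93 members between 9000 and 10000 bp, 12.9% were overlapped by replicate 2, and of the 78 clustered peaks between 10000 and 11000 bp, 5.13% were.

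Members chained at midpoints 10 kb or less apart formed 203 loci. A locus held a median of 7 members and at most 18, and spanned a median of 10.3 kb and at most 37.4 kb. The loci covered 2.17 Mb, 0.0795% of the assembled chromosomes. A single protein-coding gene lay within 10 kb of the members in 173 loci, while 30 loci had 2 or more. Neighbouring members were a median of 1194 bp apart, so a locus was a row of separate short peaks.

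**Figure D1:**
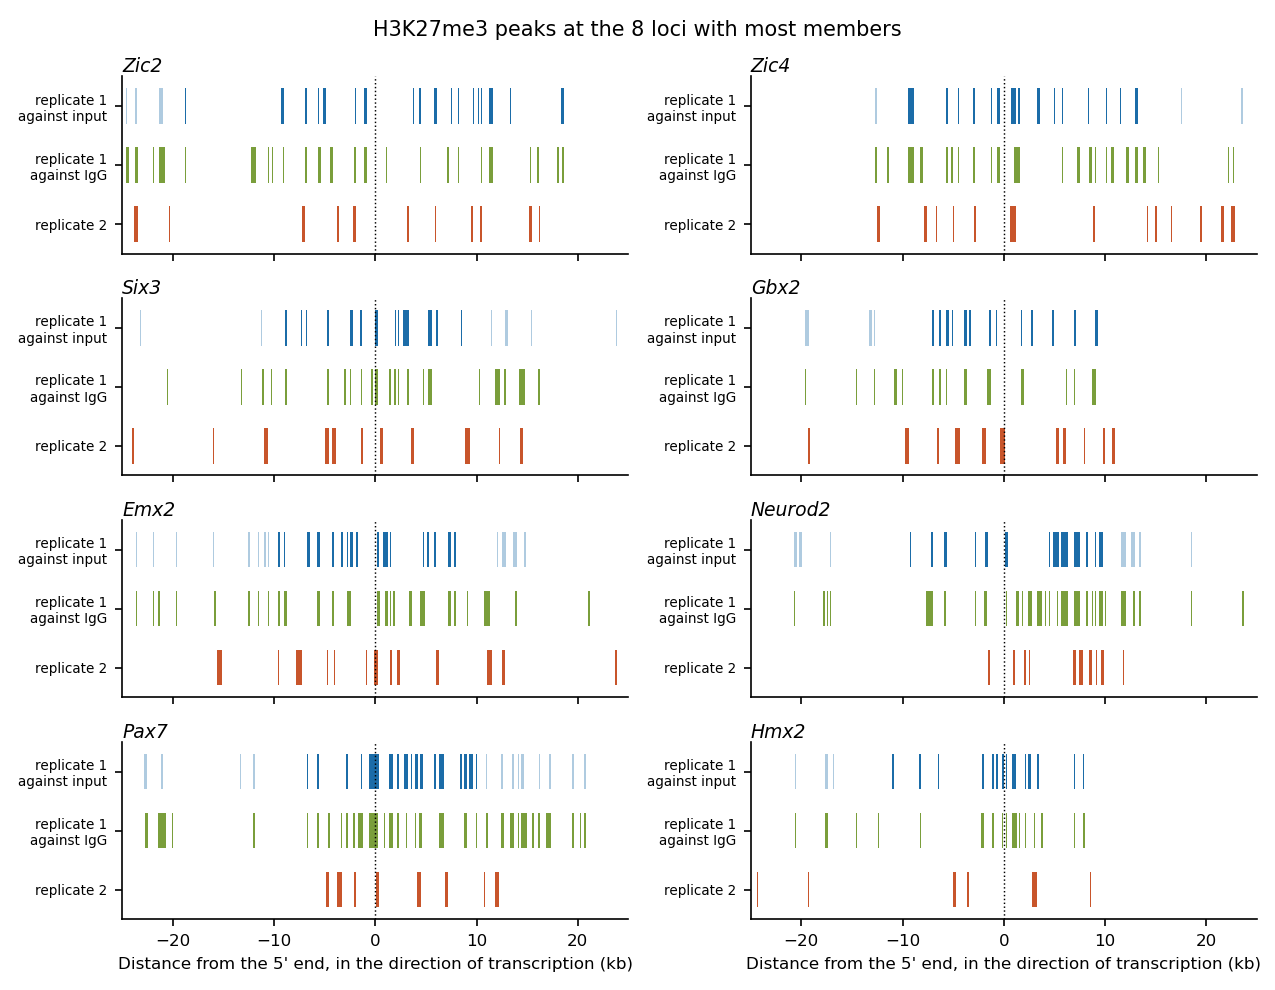
Peaks of the 3 lists at the 8 loci with most members, drawn to scale by distance from the 5′ end of the named gene in kb, with transcription running to the right. Dark blue bars are members, light blue bars are other replicate 1 peaks, green bars are replicate 1 peaks called against IgG and orange bars are replicate 2 peaks. Replicate 2 peaks lay among the members at each of the 8 loci, mostly without meeting them.

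Peaks of the same immunoprecipitated library called against IgG overlapped 1041 of the 1491 members (69.8%, 95% Wilson interval 67.4% to 72.1%). Over all 22375 replicate 1 peaks outside the Hox clusters the share was 50.6%. Since both lists share the H3K27me3 library that the selection used, this describes the effect of the control and nothing further is read from it.

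The independent question was whether replicate 2 marked the same places. A replicate 2 peak overlapped 200 of the 1491 members by at least 1 base (13.4%, interval 11.8% to 15.2%). The share over all replicate 1 peaks outside the Hox clusters was 2.62%, and over those that were not members it was 1.85% (1.67% to 2.04%). Most members were therefore not met by a replicate 2 peak, but the share was above that of the remaining peaks by more than the counting error. The intervals treat peaks as independent, while members of a locus lie side by side. No p-value is given, since there were 2 H3K27me3 libraries and peaks are not replicates of a condition. At 155 members peaks of all 3 lists met.

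The overlap went with the clustering and less with the position near a gene. Peaks with as many neighbours but more than 10 kb from any protein-coding 5′ end were overlapped in 10.1% of cases (8.38% to 12.1%, 990 peaks), an interval that overlaps that of the members. Sparse peaks within 10 kb of a 5′ end were overlapped in 2.68% (2.25% to 3.19%, 4582 peaks) and sparse peaks farther away in 1.06% (0.914% to 1.24%, 15312 peaks). Clustered peaks in the Hox clusters had 16.9% (13.4% to 21.0%, 373 peaks), which also overlaps the interval of the members. Among peaks near a 5′ end, 1.06% of those with 0 neighbours were overlapped, 9.23% of those with 5 and 17.4% of those with 10 to 14. The rise was not steady near the limit of the selection. Peaks with 3 neighbours had 7.76% (5.63% to 10.6%), which overlaps the interval of those with 5 (6.28% to 13.4%), and peaks with 4 had 4.68%.

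**Figure D2:**
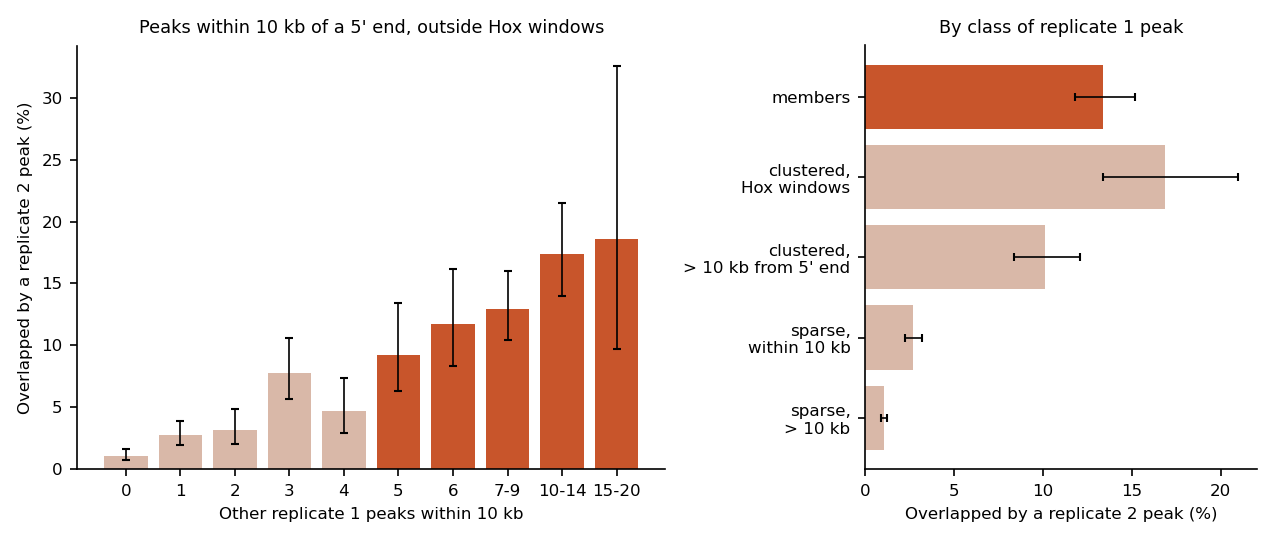
Share of replicate 1 peaks, in percent, that a replicate 2 peak overlapped, by the number of other replicate 1 peaks within 10 kb (left, peaks near a 5′ end outside the Hox clusters) and by class (right). Bars are shares with 95% Wilson intervals, and members are drawn in dark orange. The share was 1.06% at 0 neighbours and 17.4% at 10 to 14, and 13.4% over all members.

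Longer peaks were overlapped more often, among members and other peaks alike. Members of 46 to 100 bp were overlapped in 8.71% of cases, compared with 1.08% of other peaks of that length. Up to 200 bp the shares were 11.1% and 1.65%, and above 200 bp they were 19.3% (16.2% to 22.9%) and 4.92% (4.19% to 5.78%). In each length class the interval of the members lay above that of the other peaks.

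The replicates were also compared at the scale of a locus. A wider window meets more peaks by construction, so shares are compared between sets of peaks and not between scales. Of the members, 96.2% had a replicate 2 midpoint within 10 kb, compared with 38.7% of the other replicate 1 peaks outside the Hox clusters. Of the 203 loci, 161 held the midpoint of a replicate 2 peak (79.3%, interval 73.2% to 84.3%). Among the 56 loci with 10 or more members 55 did. In all, 603 replicate 2 peaks lay in the loci, 1.81% of its nuclear peaks in 0.0795% of the chromosomes. Their density was 2.78 per 10 kb of locus and 0.122 per 10 kb over all chromosomes, a ratio of 22.7. Replicate 1 itself had 6.91 peaks per 10 kb of locus, by choice.

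Within a locus, however, the positions of the peaks coincided little. Replicate 1 peaks covered 13.1% of the bases of the loci and replicate 2 peaks 7.27%. Both covered 1.06% of the bases, and the product of both coverages was 0.956%, a ratio of 1.10. The called peaks of the replicates thus shared loci but, within them, few of the same bases. The part of the short fragment lengths used in calling was not tested here either.

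**Figure D3:**
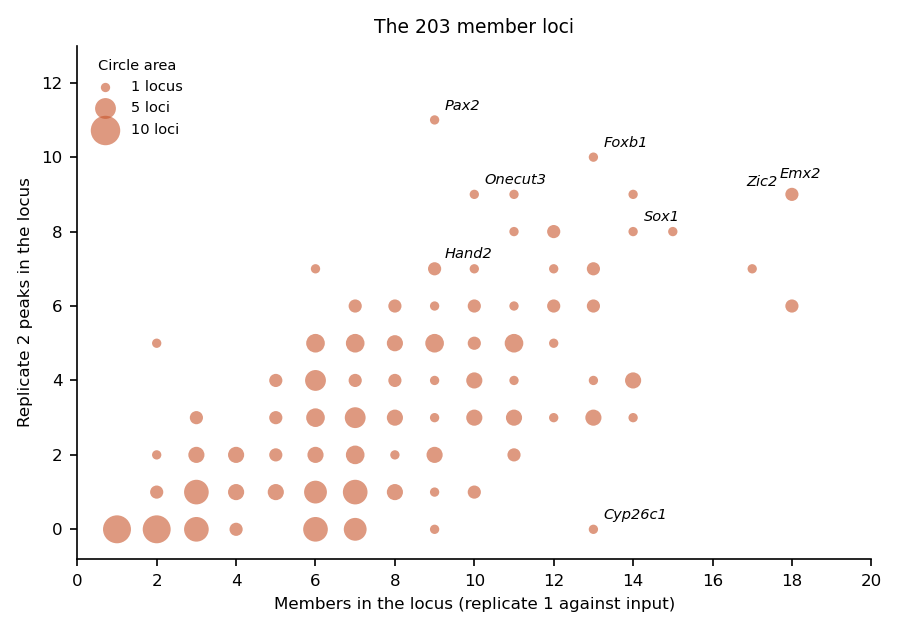
Number of replicate 2 peaks against number of members in each of the 203 loci, with circle area giving the number of loci at a point and 8 loci named. Zic2 and Emx2 held 18 members and 9 replicate 2 peaks each, Pax2 held 11 replicate 2 peaks, and Cyp26c1 held 13 members and 0.

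The replicate 2 peaks in the loci were not much stronger than others. Their median fold enrichment was 2.51, compared with 2.45 for the 32568 replicate 2 peaks outside the loci and the Hox clusters, and their median length was 236 bp compared with 179 bp. A −log10 p of 3 or higher was found for 17.7% and 10.8%, respectively. They differed more in grouping and CpG content. Of the peaks in the loci, 56.2% had 5 or more replicate 2 neighbours within 10 kb, compared with 0.906% of the others. The median CpG content was 2.43 and 0.687 per 100 bases. The loci lie near 5′ ends by the selection, and their bases outside the peaks of both replicates held 2.88. The CpG contrast therefore cannot be told apart from the position of the loci.

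Of the 12 loci with most members, 10 are described here, each called by the transcription factor gene of development nearest to its middle. Other genes shared 3 of them, namely Gm5089 and Gm10837 at Zic2, Ppp1r1b at Neurod2 and Bub3 at Hmx2. Zic2 and Zic5, zinc finger factors of the neural tube, shared the longest locus (chr14:122456658-122494034). It held 18 members, 22 peaks called against IgG and 9 replicate 2 peaks, 4 of the members being overlapped by replicate 2. Six3, a homeobox gene of eye and forebrain (chr17:85604708-85623090), had 18 members, 13 peaks against IgG and 6 in replicate 2. Emx2, which patterns the cerebral cortex and the urogenital tract (chr19:59448716-59466337), had 18, 15 and 9. Pax7, known from muscle stem cells and neural crest (chr4:139823526-139840309), had 18, 17 and 6. At these 4 loci the replicates were thus dense together, and 3 or 4 members of each met a replicate 2 peak.

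Zic4 and Zic1, factors of the cerebellum that lie side by side, shared a locus of 17 members with 17 peaks against IgG and 7 in replicate 2. Gbx2, a homeobox gene of the midbrain and hindbrain boundary, had 15, 10 and 8. Neurod2, a neuronal bHLH factor, had 14, 18 and 9. Replicate 2 thus had 7 to 9 peaks at these 3 loci, beside 6 to 9 at the 4 before them. Hmx2 and Hmx3, homeobox genes of the inner ear, shared a locus of 14 members with 13 peaks against IgG and 3 in replicate 2, none of which overlapped a member. Eomes, a T-box factor of early embryo and cortex, had 14, 11 and 4. Sox1, a factor of neural progenitors (chr8:12386638-12404272), also had 14 members, with 15 and 8 in the other lists. At Sox1 8 of the 14 members were overlapped by replicate 2, the highest number among these 10 loci, and its strongest replicate 2 peak had a fold enrichment of 3.26 and a −log10 p of 4.16.

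The loci at which replicate 2 was most dense per length, among those of 3 or more members, were others. Nrn1, which encodes the neurite protein neuritin, had 7 members and 5 replicate 2 peaks in 6.44 kb, 7.77 per 10 kb. Pax2, a factor of kidney and ear, had 9 members and 11 replicate 2 peaks in 17.3 kb, 6.36 per 10 kb. Lhx3, needed for the pituitary and motor neurons, had 7 and 6 (6.24 per 10 kb), Foxb1, a forkhead factor of the hypothalamus, had 13 and 10 (5.69), and the homeobox gene Onecut3 had 10 and 9 (5.64). Pax2 was 1 of 3 loci in which replicate 2 had more peaks than there were members. Both coverages were alike there, with 16.2% of the bases in replicate 1 peaks and 16.0% in replicate 2 peaks.

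No replicate 2 midpoint lay in 42 loci. At 1 of them, Gata4, a replicate 2 peak reached over the edge and overlapped 1 member, and the other 41 held no base of a replicate 2 peak. The largest of the 42 was that of Cyp26c1 and Cyp26a1, which encode retinoic acid degrading enzymes (chr19:37678412-37700467). It held 13 members in 22.1 kb and 14 peaks against IgG, of which 10 members were overlapped, and the replicate 2 peak nearest to the 5′ end of Cyp26c1 was 45031 bp away. The other loci of this kind with most members were those of Alx1, a factor of craniofacial mesenchyme, with 9 members and 11 peaks against IgG, Epha8, an ephrin receptor, with 7 and 4, Shisa7, which encodes a membrane protein of synapses, with 7 and 6, and the predicted gene Gm8909 with 7 and 4. In all, 6 of these loci tied at 7 members, and the longest 3 are named. At Alx1 1 replicate 2 peak lay 5212 bp from the 5′ end, just outside the locus. Absence of a replicate 2 peak is absence of a call at the authors' cutoff and not of the mark.

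Counted by gene, 240 of the 21895 protein-coding genes outside the Hox clusters had a member within 10 kb of the 5′ end. A replicate 2 peak lay within 10 kb of 220 of them (91.7%, interval 87.5% to 94.5%), compared with 21.7% of all those genes. At least 5 replicate 2 peaks lay near 92 of the 240 (38.3%, 32.4% to 44.6%), compared with 0.516% of all genes. The same selection applied to replicate 2 found 454 peaks and 106 genes, 0.484% of all genes, and 87 of them were member genes. This is 82.1% of the genes found in replicate 2 and 36.2% of the member genes. Of the 454 peaks, 339 (74.7%) lay in the member loci. Genes that lie side by side share peaks, so these counts are not independent.

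The replicate 2 counts went with the number of members. At least 5 replicate 2 peaks lay near 17.1% of the 82 genes with 1 to 5 members (10.5% to 26.6%), 42.0% of the 100 genes with 6 to 9 (32.8% to 51.8%) and 62.1% of the 58 genes with 10 to 18 (49.2% to 73.4%). Among the 339 genes that had 3 or 4 replicate 1 peaks but no member, the share was 2.65%, and 69.0% of them had at least 1 replicate 2 peak. The median number of replicate 2 peaks was 2, 4 and 6 in the 3 classes of member genes, and 1 in the genes with 3 or 4 replicate 1 peaks.

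**Figure D4:**
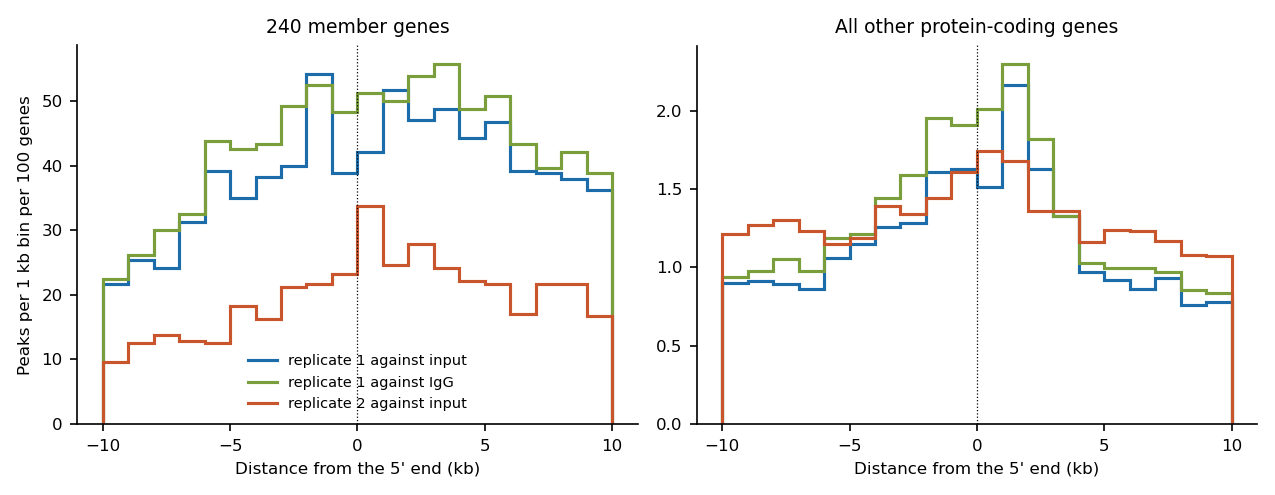
Peaks per 1 kb bin per 100 genes against distance from the 5′ end in kb, for the 240 member genes (left) and the 21655 other protein-coding genes (right), whose vertical axes differ in scale. At member genes replicate 2 was highest in the first kb downstream (33.8), while replicate 1 against input was lower within 1 kb of the 5′ end (38.8 and 42.1) than in the next bin on either side (54.2 and 51.7).

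The peaks ran across the whole 10 kb on either side of member genes. Replicate 1 had 38.8 peaks per 100 genes in the kb upstream of the 5′ end and 42.1 in the kb downstream, and 54.2 and 51.7 in the next bin on either side. Called against IgG, the same library had 48.3 in the kb upstream and 52.5 in the bin before it, and its highest bin was 3 to 4 kb downstream (55.8). Replicate 2 had its highest value, 33.8, in the first kb downstream and 23.3 in the kb upstream. At 9 to 10 kb from the 5′ end replicate 2 had 9.58 upstream and 16.7 downstream, and replicate 1 against input had 21.7 and 36.2.

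**Figure D5:**
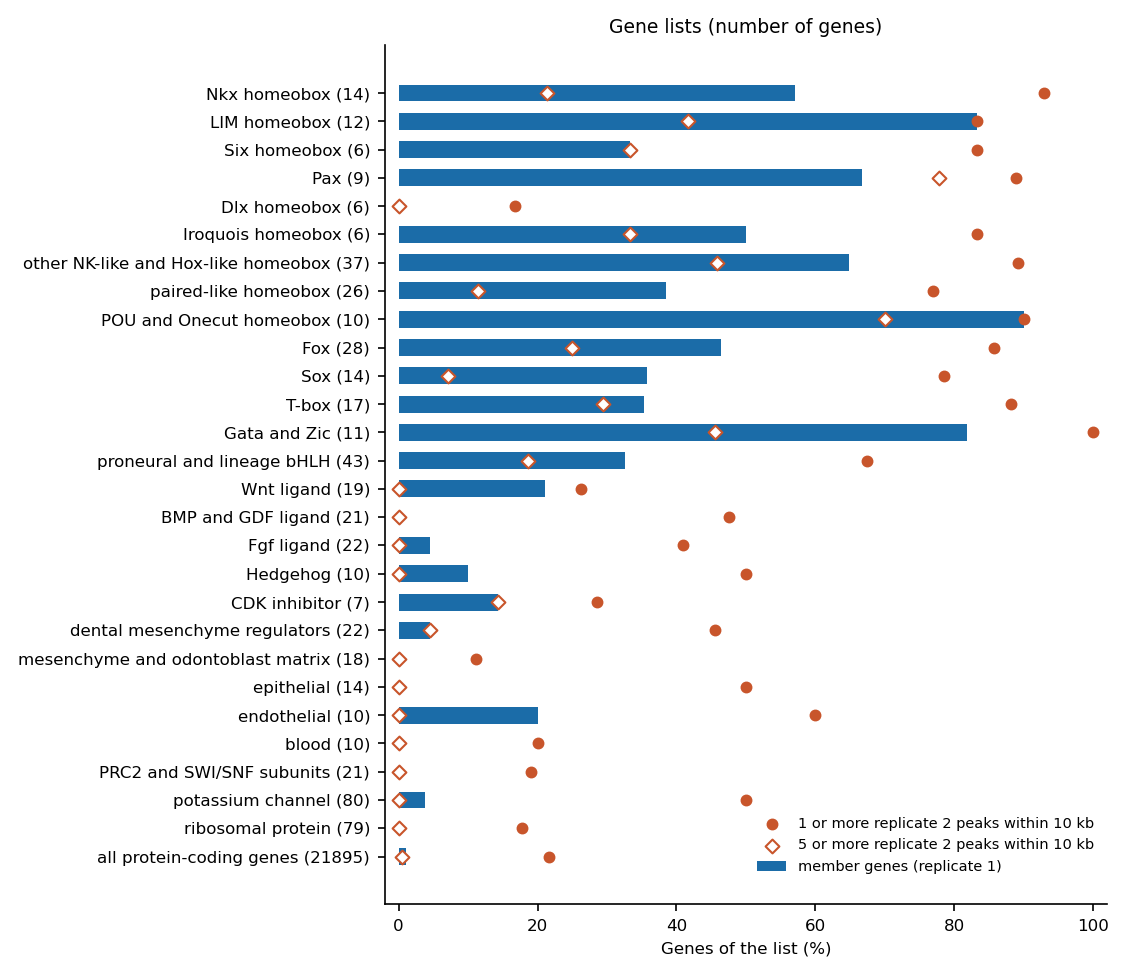
Share of the genes of each list, in percent, that were member genes (blue bars, chosen on replicate 1) and that had 1 or more (filled circles) or 5 or more (open diamonds) replicate 2 peaks within 10 kb, with the number of genes in each list in parentheses. The Pax list had 66.7%, 88.9% and 77.8%, and the ribosomal protein list 0%, 17.7% and 0%.

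The member genes were read against 27 lists of gene families and functions. Of the 240, 130 were in a list and 110 in none. Member shares per list describe the choice, and the replicate 2 counts beside them were independent of it. Over all genes 1.10% were member genes, 21.7% had a replicate 2 peak and 0.516% had 5 or more.

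The homeobox families are given first. Of 10 POU and Onecut genes, factors of neurons and liver, 9 were member genes and 7 had 5 or more replicate 2 peaks. Onecut2 had 13 members and 4 replicate 2 peaks, Onecut3 had 10 and 10, and Onecut1 had 9 and 6. Of 12 LIM homeobox genes, which specify motor neurons, pituitary and limb, 10 were member genes and 5 had 5 or more replicate 2 peaks, with Lhx5 at 12 members and 8 replicate 2 peaks, Lhx4 at 8 and 4 and Lhx3 at 7 and 6. Lhx9, by contrast, had 7 members, 3 peaks against IgG and 0 in replicate 2. Of 9 Pax genes 6 were member genes and each of these had 5 or more replicate 2 peaks. Pax7 had 18 members and 6 replicate 2 peaks, Pax6, the eye and pancreas factor, had 13 and 7, and Pax5, the B cell factor, had 11 and 7.

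Other NK-like and Hox-like homeobox genes gave 24 of 37 member genes, 15 of them with 5 or more replicate 2 peaks. Emx2 had 18 members and 9 replicate 2 peaks, Gbx2 had 15 and 10, and Vax2, a factor of the ventral eye, had 13 and 8. Of 14 Nkx genes 8 were member genes. Nkx2-3, of gut and spleen, had 13 members and 3 replicate 2 peaks, Nkx2-1, of lung, thyroid and forebrain, had 11 and 6, and Nkx2-5, of the heart, had 11 and 6. The neighbouring Irx1, Irx2 and Irx4 were the member genes among 6 Iroquois genes, with 11, 10 and 9 members and 3, 8 and 8 replicate 2 peaks. Irx3, Irx5 and Irx6, which form the other Iroquois cluster, had no member, and at most 1 replicate 2 peak each. Six3 (18 members, 6 replicate 2 peaks) and Six6 (6 and 7), both of the eye, were the member genes among the 6 genes of their family.

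Paired-like homeobox genes held 10 member genes of 26, and 3 of these had 5 or more replicate 2 peaks. Otx2, of forebrain and eye, had 12 members and 5 replicate 2 peaks, and Uncx, of the somites, had 11 and 3. None of the 6 Dlx genes, which pattern the jaw and are used in the dental mesenchyme, was a member gene, which allows a share of up to 50%. At Dlx1 there were 3 replicate 1 peaks and 0 replicate 2 peaks, and of the 6 genes 1, Dlx5, had a replicate 2 peak.

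Of 28 Fox genes 13 were member genes and 7 of these had 5 or more replicate 2 peaks, among them Foxb1 (13 members, 10 replicate 2 peaks) and the endoderm factors Foxa1 (11 and 5) and Foxa2 (9 and 6). Of 14 Sox genes 5 were member genes. Sox1 had 14 members and 9 replicate 2 peaks within 10 kb, Sox14, of neurons, had 10 and 3, and Sox2, of neural progenitors and the sensory placodes, had 9 and 4. Of 17 T-box genes 6 were member genes, including Eomes (14 and 5), the hindlimb factor Tbx4 (8 and 4) and the skin and skeletal factor Tbx15 (6 and 7).

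Of 11 Gata and Zic genes 9 were member genes, and each of the 11 had a replicate 2 peak. Zic1 had 15 members and 5 replicate 2 peaks, Zic4 had 13 and 7, and Zic2 had 12 and 6. Of 43 bHLH genes of neural, muscle and other lineages 14 were member genes and 8 of these had 5 or more replicate 2 peaks. Neurod2 had 14 members and 9 replicate 2 peaks, and Olig2, of motor neurons and oligodendrocytes, had 13 and 6.

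Among signalling genes the member shares lay below those of most transcription factor lists. Except for BMP and GDF they were above the 1.10% of all genes. The Fgf and hedgehog shares rested on 1 gene each, however, and the Fgf interval includes 1.10%. Of 19 Wnt ligand genes 4 were member genes (21.1%, interval 8.51% to 43.3%), namely Wnt1 (4 members, 3 replicate 2 peaks), Wnt3 (3 and 4), Wnt7a (3 and 0) and Wnt10b (1 and 1). Fgf8, of facial and limb outgrowth, was the member gene among 22 Fgf genes (4.55%, interval 0.807% to 21.8%). It had 7 members, 10 peaks against IgG and 1 in replicate 2. Ihh, the hedgehog ligand of growing cartilage, was the member gene among 10 hedgehog pathway genes, with 5 members and 2 replicate 2 peaks. None of 21 BMP and GDF genes was a member gene (up to 14.3%), although 10 of them (47.6%) had a replicate 2 peak. No gene of these 4 lists had 5 or more replicate 2 peaks. Among 80 potassium channel genes 3 were member genes, namely Kcnj10 and Kcnj9, which lie side by side (3 members and 3 replicate 2 peaks each), and Kcna1 (3 and 0).

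Genes used by the tissue and its neighbours were counted in the same way, beside 1.10% of member genes over all genes. Of 22 regulators of dental mesenchyme 1 was a member gene (4.55%), Alx4, a factor of craniofacial mesenchyme, with 6 members, 8 peaks against IgG and 4 in replicate 2. Pax9, needed for tooth development, had 0 members, 4 replicate 1 peaks and 5 in replicate 2, and Msx1 had 0, 3 and 2 (both were named after their values were seen). Of the 22, 45.5% had at least 1 replicate 2 peak, compared with 21.7% of all genes, so single peaks did occur near them. This was not particular to the list, since 7 of 14 epithelial and 6 of 10 endothelial genes had such a peak too. Fewer did in other lists, with 2 of 10 blood genes and 14 of 79 ribosomal protein genes. For Polycomb repressive complex 2 and SWI/SNF it was 4 of 21 genes. None of 18 matrix genes of mesenchyme and odontoblasts was a member gene and 11.1% had a replicate 2 peak. The same count of 0 was found for 14 epithelial genes, 10 blood genes, 21 genes of Polycomb repressive complex 2 and SWI/SNF and 79 ribosomal protein genes. A count of 0 allows a share of up to 16.7% in the matrix, 21.4% in the epithelial, 30% in the blood, 14.3% in the complex subunit and 3.80% in the ribosomal list. Each of these limits lies above the 1.10% of all genes. Of 10 endothelial genes 2 (20%), Sox17 (8 members, 3 replicate 2 peaks) and Flt1 (6 and 3), a receptor of vascular growth factor, were member genes. These counts concern called peaks, and they do not measure expression.

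Of the genes that the study itself examined, Cdkn2a, which encodes the cell cycle inhibitors p16 and p19, was a member gene with 2 members. Within 10 kb of its 5′ end replicate 1 had 4 peaks with the input control and 7 with IgG, while replicate 2 had 8, and the selection found it in replicate 2 as well. Its 2 members, each a locus of its own, were not overlapped by a replicate 2 peak, so the replicates shared the gene but not these positions. It was the member gene among 7 genes of CDK inhibitors. Hand2, a bHLH factor of limb, heart and branchial arch, had 9 members, 10 peaks against IgG and 7 in replicate 2. No list had a peak within 10 kb of the 5′ end of Ezh2, Arid1a or Eda.

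Of the 110 member genes in no list, 8 with most members are given, chosen after their values were seen. Nr2e1, a nuclear receptor of neural stem cells, had 13 members, 16 peaks against IgG and 7 in replicate 2, and its neighbour Ostm1 had 13, 15 and 7. The homeobox gene Meis2 had 12, 14 and 7, and Wt1, the factor of kidney and gonad, had 12, 11 and 7. Dmrt3, a factor of spinal interneurons, had 11, 11 and 7, Fezf1, a factor of the forebrain, had 11, 13 and 3, and Rgma, a guidance molecule of axons, had 11, 7 and 3. Slc32a1, the vesicular transporter of inhibitory neurons and 1 of 5 genes tied at 10 members, had 10, 17 and 5.

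Features that the selection did not use were compared last. Members had a median of 1.61 CpG per 100 bases (quartiles 0.558 and 3.31), sparse peaks near a 5′ end 1.04 (0 and 2.17), clustered peaks far from one 1.16 (0.326 and 2.17), and clustered peaks in the Hox clusters 1.29. The ranges between quartiles overlapped. Of the members, 6.10% were more than 50% repeat-masked, compared with 13.5% of all other peaks outside the Hox clusters. The observed to expected CpG ratio within 1 kb of the 5′ end had a median of 0.629 at member genes and 0.471 at the other genes, and 57.9% and 33.6% of them had a ratio of 0.6 or higher. It was 0.535, 0.626 and 0.685 for genes with 1 to 5, 6 to 9 and 10 to 18 members.

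Within the loci, the replicates differed in the bases their peaks lay on. The bases in replicate 1 peaks alone held 2.39 CpG per 100 bases, those in replicate 2 peaks alone 3.74, those in both 2.99 and those in neither 2.88. These values pool the bases of all loci. Locus by locus the direction was mixed, since replicate 1 peaks held more CpG per base than the bases in neither in 66 of 194 loci and replicate 2 peaks did in 94 of 162. Tag length, depth and control all differ between the replicates, and their part in this was not tested.

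Of the members, 15.5% lay in an exon of a protein-coding gene, 32.1% in an intron and 52.4% outside protein-coding genes, with 15.7% of all members in a gene of another type such as an antisense RNA. The shares for sparse peaks near a 5′ end were 16.0%, 37.8% and 46.2%. The median distance of members to the nearest 5′ end was 3971 bp, and 43.2% lay upstream of it. Within 1 kb lay 172 members (11.5%), so that most were near promoters and not on them, as the 10 kb window allows. Sparse peaks near a 5′ end had a median distance of 3368 bp, and 14.8% of them lay within 1 kb. Replicate 2 overlapped 16.0% of members in exons, 9.81% in introns and 14.9% outside protein-coding genes. Members were found on 19 chromosomes. In the whole list, 1491 of the 22757 replicate 1 peaks were members. The share by chromosome was highest on chromosome 19 (13.5%, 129 of 956 peaks), which held 18 member genes. None of the 224 replicate 1 peaks on chromosome X was a member. The limit on this share, 1.34%, treats peaks as independent. Members come in groups by the selection, so that limit is too narrow and chromosomes are not compared by it.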

How the data were processed

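ChIP-seq libraries of molar mesenchyme, 2 with H3K27me3 antibody, 2 of input and 1 with IgG, were analysed from the peak lists. The authors aligned reads to GRCm38 with BWA, kept unique alignments, sorted them with SAMtools and called broad peaks with MACS2 2.1.1 at a cutoff of 0.005 on the p-value, each H3K27me3 library against its input and replicate 1 also against IgG. The pileup the authors deposited is a signal, the scaled number of overlapping tags in a peak. The deposited fold enrichment is a ratio of pileup to control background, and the deposited p-value is on a −log10 scale. Few tags stand behind a peak, with a lowest pileup of 3.12 against input and 3.22 against IgG in replicate 1 and 6.00 in replicate 2, so single positions are subject to counting error.

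The selection was applied to midpoints, with 5′ ends of GENCODE M21 genes and mitochondrial genes left out. An overlap was at least 1 base. Shares carry 95% Wilson intervals for counting error alone, and the limit on a share of 0 is 3 counts of the total. Peak height was not used to compare libraries. Named loci were the 12 with most members, the 5 with most replicate 2 peaks per 10 kb among loci of 3 or more members, the 5 with most members and 0 replicate 2 peaks, and up to 3 member genes per gene list, of which 2 genes are not reported here. Of the 6 loci whose sequence this rule picked, that of Zic4 fell in an untranslated exon and is not printed. Members, gene lists and comparisons were chosen with earlier results of these data known, and 1 LIM homeobox gene listed among the bHLH genes by mistake was removed after the counts were seen. Scripts ran in Python 3.11.15 with pandas 2.3.3, numpy 2.4.6, scipy 1.17.1 and pysam 0.24.0, and were tested on simulated peaks. Alternatives changed the number of neighbours, windows, overlap, gene ends, cutoffs and lists.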

Additional observations from a re-analysis of the deposited data

How the results depend on the processing

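There were 1491 members, 2305 with 3 other peaks required, 433 with 10, 721 with neighbours counted within 5 kb and 906 with the 5′ end within 5 kb. With replicate 1 peaks at a −log10 p of 3 or higher 0 members remained, so no share could be had there. The share overlapped by replicate 2, 13.4%, was 10.9% with 3 and 17.6% with 10 other peaks required, 6.51% when 50% of the member had to be covered, 44.7% when a replicate 2 midpoint within 1 kb sufficed, 11.3% with replicate 2 reduced to as many peaks as replicate 1, and 2.48% with replicate 2 at a −log10 p of 3 or higher. The share overlapped by the list against IgG, 69.8%, was 60.4% at 50% coverage and 10.3% at that −log10 p. For neither list was the share of the other replicate 1 peaks computed under these settings. Whether members still differed from other peaks there was not tested. The share of member genes with a replicate 2 peak, 91.7%, was 83.9% with 3 and 95.6% with 10 other peaks required. At a −log10 p of 3 or higher in replicate 2 it was 46.2%, with 3.33% over all genes. Genes with 5 or more replicate 2 peaks were 38.3%, 30.8% with the reduced list (0.406% over all genes) and 0.833% at the higher −log10 p (0.0228% over all genes). Loci with a replicate 2 peak were 79.3%, 68.3% when chained at 5 kb and 36.9% at the higher −log10 p. The selection found 87 genes in both replicates, 162 with 3 and 3 with 10 other peaks required. Without regard to the other replicate it found 106 genes in replicate 2 and 240 in replicate 1, each count including the 87. The other 18 settings stayed within the counting interval of a share or within 1.5 times of a count, among them those with 5′ ends of all transcripts. The reduction by a higher −log10 p leaves fewer peaks by construction, 3681 in replicate 2. No paired analysis was possible because there is 1 peak list per replicate and control and no test was made.

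Replicate 2 was the deeper library and had the longer tags, and why it had no peak at some loci of the shallower replicate 1 was not tested.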

Other observations

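Replicate 2 also held rows of peaks near genes that replicate 1 did not select. The selection applied to replicate 2 found 19 genes that were not member genes, and 14 of them had 1 or more replicate 1 peaks within 10 kb. Dmrta2, a factor of forebrain development on chromosome 4, had 10 replicate 2 peaks, 3 replicate 1 peaks against input and 12 against IgG. Igf2bp1, an RNA-binding protein, had 7, 3 and 3, and Tlx2, a homeobox gene of enteric neurons, had 7, 5 and 4. Nkx2-2, a factor of the ventral neural tube and pancreas, had 4, 5 and 9.

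Cdkn2b, the neighbour of Cdkn2a on chromosome 4, had 2 replicate 2 peaks, 4 replicate 1 peaks and 5 against IgG. Sall3 had 5 replicate 2 peaks and 0 replicate 1 peaks, with 1 peak against IgG. The predicted genes Gm10715, Gm10717, Gm10718, Gm10719 and Gm17535, which lie side by side at the start of chromosome 9, had between 4 and 6 replicate 2 peaks and 1 or 2 replicate 1 peaks each. They were named after their values were seen. No repeat-rich regions were filtered from the lists here, and whether these peaks reflect the mark was not tested. These genes are part of the counts of genes that the selection found in replicate 2.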
